A study of Mus musculus with 2 samples.

Results

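The accessibility of chromatin was described at 10 genes of sex steroid synthesis and gonadal hormone signalling in the adrenal gland: Cyp17a1, Cyp19a1, Hsd17b3, Lhcgr, Fshr, Inha, Inhba, Inhbb, Amh and Amhr2. The genes were chosen by name, as genes best known from the ovary and testis, from among 21938 protein-coding genes of GENCODE release M21 on the mouse build mm10, by a rule that uses no measured value. Earlier results of these data were known when the choice was made. Each gene was examined over its body and 50 kb on either side. A peak was called a promoter peak when it lay within 1 kb of any annotated start of the gene, and a distal peak when no start of any gene was annotated within 1 kb of it. A peak was shared when peaks of both replicates overlapped by at least 1 bp.

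The study used DNase-seq, in which the enzyme DNase I cuts DNA that is not shielded by nucleosomes and the cut ends are sequenced. The 2 samples were adrenal gland tissue of female mice of the F1 cross B6CASTF1/J (C57BL/6J by CAST/EiJ), aged 10 days, with no treatment or genetic change named, and the labels call them biological replicates 1 and 2 of 1 group. Each sample was labelled as coming from 3 females, so it was read as a pool of animals. Both carried the same donor label, and how far the replicates differ as animals is not known. With 1 group there was no comparison between conditions and no test, and the values below are descriptions with both replicates given.

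Replicate 1 had 98813 peaks in the stricter of its deposited lists and 339116 footprints (short stretches inside open chromatin that are cut less than their surroundings), and replicate 2 had 55135 and 241536. Shared peaks were higher in replicate 1 in 93% of 48299 regions, with a median ratio of 1.66-fold. Across the genome, a promoter peak was shared at 63.5% of coding genes. The tissue label was set beside marker genes. Shared promoter peaks were found for 6 of 8 adrenal cortex, 4 of 7 chromaffin and 4 of 6 granulosa and ovary markers. They were found for 2 of 9 oocyte and germ cell markers, 1 of 5 genes of a Sertoli and Leydig list and 1 of 5 kidney markers. The Sertoli and Leydig list includes Tex11, a gene of germ cells, which had no promoter peak in either replicate. In the germ cell list the genes with one were Dazl (8.01 in replicate 1 and 3.31 in replicate 2) and Gdf9 (8.78 and 4.61, in a region shared with a start of Uqcrq), and Bmp15, Zp1, Zp2, Zp3, Nobox, Figla and Ddx4 had no promoter peak in either replicate. In the granulosa list Irx3 had 3.14 and 1.49, Nr5a2 1.8 and 0.973, Fst 1.36 and 1.02 and Foxl2 0.628 and 0.855, while Hsd17b1 and Serpina5 had none in either replicate. In pieces of whole gland, a lower share of cells with an open site and a lower accessibility per cell cannot be told apart. The part of gonad-type cells in the values below was not tested.

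Sex steroids are made from cholesterol by a chain of enzymes in which Cyp17a1 opens the route to androgens, Hsd17b3 makes testosterone and Cyp19a1, the aromatase, turns androgens into oestrogens. The gonads carry out these steps under the pituitary gonadotropins, luteinising hormone and follicle-stimulating hormone, which act through the receptors Lhcgr and Fshr, and gonadal cells answer with inhibins, activins and anti-Müllerian hormone, all members of the TGF-beta family. The adrenal cortex arises from the same primordium as the gonads and shares the factor SF-1 (gene Nr5a1) with them. The mouse adrenal after birth is known to make corticosterone and to lack Cyp17a1, and glands of some mouse strains gain cells with gonadal gene expression after gonadectomy.

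The sequences at the sites on which the results turn are given here in the mm10 (GRCm38) build. For shared peaks, 160 bases around the middle of the overlap of both replicates' highest peaks are shown on the plus strand, and capitals mark bases that lay in a footprint of both replicates. The windows were picked because they hold the highest shared promoter or distal peak of a gene outside annotated UTRs, the shared peak nearest to the gene's starts (Amhr2) or a match to a searched motif (the farther Inhbb site).
Cyp17a1 intron, chr19:46670799-46670958, plus strand: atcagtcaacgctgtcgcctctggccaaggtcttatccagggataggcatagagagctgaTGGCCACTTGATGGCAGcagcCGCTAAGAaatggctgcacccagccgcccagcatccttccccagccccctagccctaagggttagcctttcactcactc
Cyp17a1 downstream, in Wbp1l, chr19:46641823-46641982, plus strand: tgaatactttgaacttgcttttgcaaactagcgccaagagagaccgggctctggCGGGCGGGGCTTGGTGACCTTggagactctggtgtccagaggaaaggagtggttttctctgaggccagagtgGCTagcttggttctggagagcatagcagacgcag
Cyp19a1 internal start, chr9:54181401-54181560, plus strand: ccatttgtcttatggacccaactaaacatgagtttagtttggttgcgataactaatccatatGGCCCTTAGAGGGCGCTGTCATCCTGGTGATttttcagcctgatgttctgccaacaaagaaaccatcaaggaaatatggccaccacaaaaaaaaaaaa
Hsd17b3 upstream, chr13:64093511-64093670, plus strand: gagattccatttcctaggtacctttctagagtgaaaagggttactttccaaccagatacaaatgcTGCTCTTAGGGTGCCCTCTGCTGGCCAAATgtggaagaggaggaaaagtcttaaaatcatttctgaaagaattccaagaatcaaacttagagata
Lhcgr upstream, chr17:88803611-88803770, plus strand: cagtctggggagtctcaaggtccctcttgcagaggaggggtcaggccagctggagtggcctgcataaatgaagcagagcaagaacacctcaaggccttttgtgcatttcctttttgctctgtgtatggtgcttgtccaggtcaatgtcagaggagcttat
Fshr beyond the gene end, chr17:88954145-88954304, plus strand: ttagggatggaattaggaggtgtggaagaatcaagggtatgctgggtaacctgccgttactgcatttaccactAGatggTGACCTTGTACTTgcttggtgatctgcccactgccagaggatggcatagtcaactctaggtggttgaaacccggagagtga
Inha upstream, in Asic4, chr1:75467701-75467860, plus strand: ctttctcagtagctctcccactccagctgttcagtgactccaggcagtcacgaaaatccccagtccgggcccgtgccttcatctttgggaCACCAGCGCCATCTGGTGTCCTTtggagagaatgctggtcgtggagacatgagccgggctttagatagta
Inhbb downstream, chr1:119391411-119391570, plus strand: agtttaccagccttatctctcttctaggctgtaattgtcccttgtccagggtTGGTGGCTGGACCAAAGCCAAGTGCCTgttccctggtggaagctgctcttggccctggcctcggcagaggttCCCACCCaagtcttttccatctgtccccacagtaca
Inhbb farther downstream, chr1:119389097-119389256, plus strand: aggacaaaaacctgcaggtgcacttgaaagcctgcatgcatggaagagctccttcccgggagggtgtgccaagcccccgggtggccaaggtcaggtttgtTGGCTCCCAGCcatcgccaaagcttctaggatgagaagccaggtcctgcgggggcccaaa
Amh coding exon, chr10:80806001-80806160, plus strand: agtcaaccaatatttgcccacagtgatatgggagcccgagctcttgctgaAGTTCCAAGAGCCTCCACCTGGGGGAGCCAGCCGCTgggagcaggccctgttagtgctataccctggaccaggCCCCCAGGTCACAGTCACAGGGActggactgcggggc
Amhr2 upstream, chr15:102442621-102442780, plus strand: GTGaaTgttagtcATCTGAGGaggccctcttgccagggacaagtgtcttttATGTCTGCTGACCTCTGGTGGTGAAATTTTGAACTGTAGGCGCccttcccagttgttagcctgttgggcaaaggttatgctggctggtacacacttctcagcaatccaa

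For 3 receptor genes the 250 bases before a RefSeq start are shown in the direction of transcription, from the GRCm38 promoter sequences of RefSeq, which had an entry for 8 of the 10 genes. The Lhcgr stretch lies next to an open start, and the Fshr and Amhr2 stretches lie at starts with no listed signal. Capitals mark matches to a searched motif here.
Lhcgr promoter, chr17:88792015-88792264, minus strand: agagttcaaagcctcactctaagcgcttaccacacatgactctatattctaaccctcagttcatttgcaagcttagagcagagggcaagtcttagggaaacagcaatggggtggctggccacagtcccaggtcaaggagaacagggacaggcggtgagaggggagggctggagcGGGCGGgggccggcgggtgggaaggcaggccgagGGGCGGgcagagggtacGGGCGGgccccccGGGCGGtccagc
Fshr promoter, chr17:89200676-89200925, minus strand: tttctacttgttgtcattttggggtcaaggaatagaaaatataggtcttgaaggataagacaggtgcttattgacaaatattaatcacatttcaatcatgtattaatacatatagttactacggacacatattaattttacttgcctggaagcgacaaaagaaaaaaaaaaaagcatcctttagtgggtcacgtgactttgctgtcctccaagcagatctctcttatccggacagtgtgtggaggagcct
Amhr2 promoter, chr15:102445117-102445366, plus strand: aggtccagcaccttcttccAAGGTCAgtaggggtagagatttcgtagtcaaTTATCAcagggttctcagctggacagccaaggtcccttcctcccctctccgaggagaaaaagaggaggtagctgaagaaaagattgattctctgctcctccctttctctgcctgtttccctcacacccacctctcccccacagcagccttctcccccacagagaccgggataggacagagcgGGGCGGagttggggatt

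Of the 10 genes, 7 had a shared promoter peak, beside the 63.5% of all protein-coding genes: Cyp17a1, Cyp19a1, Lhcgr, Inha, Inhba, Inhbb and Amh. Over 10 genes, 7 is close to that share. Amhr2 had a promoter peak in replicate 1 alone, and Fshr and Hsd17b3 had none in either replicate. In single replicates the counts were 8 in replicate 1 (67.5% of coding genes) and 7 in replicate 2 (64.5%). Each of the 7 held a footprint inside a shared promoter peak in both replicates, as did 63.0% of coding genes. The count fell to 5 when only starts of protein-coding transcripts were used (62.5% of coding genes) and to 5 with the most 5′ start alone (59.0%), and in both cases Cyp17a1 and Cyp19a1 were the genes lost. Within 500 bp of a start there were 6 (62.1%), without Amh, and on the looser peak list there were 8 (67.6%), with Amhr2 added.

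The promoter peaks of these genes were low, and all 7 lay under the median of coding genes in both replicates. Their median height, in the signal units that the authors normalised, was 1.68 in replicate 1 and 1.51 in replicate 2 over the 7 genes, against 5.96 and 3.11 over all coding genes with a shared promoter peak. Percentiles were taken among all coding genes with a promoter peak in the same replicate. The order from the top was Amh (28.3 and 34.7), Inha (30.5 and 31.0), Inhba (29.6 and 22.0), Cyp17a1 (18.0 and 21.3), Inhbb (15.3 and 17.1), Cyp19a1 (11.4 and 6.5) and Lhcgr (2.3 and 2.1). The Inha percentiles are those of a peak 477 bp upstream in a UTR of Obsl1, which cannot be assigned to either gene. The Inha peak across the start was lower (1.48 and 0.954), and no percentile was computed for it. The replicate range of Amh overlapped those of Inha and Inhba, so Amh is not separated from either, and no other pair of ranges overlapped. Peak heights came in steps, and if each step stood for 1 sequenced tag, the counting error of these heights was 4.62% to 11.6%.

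**Figure D1:**
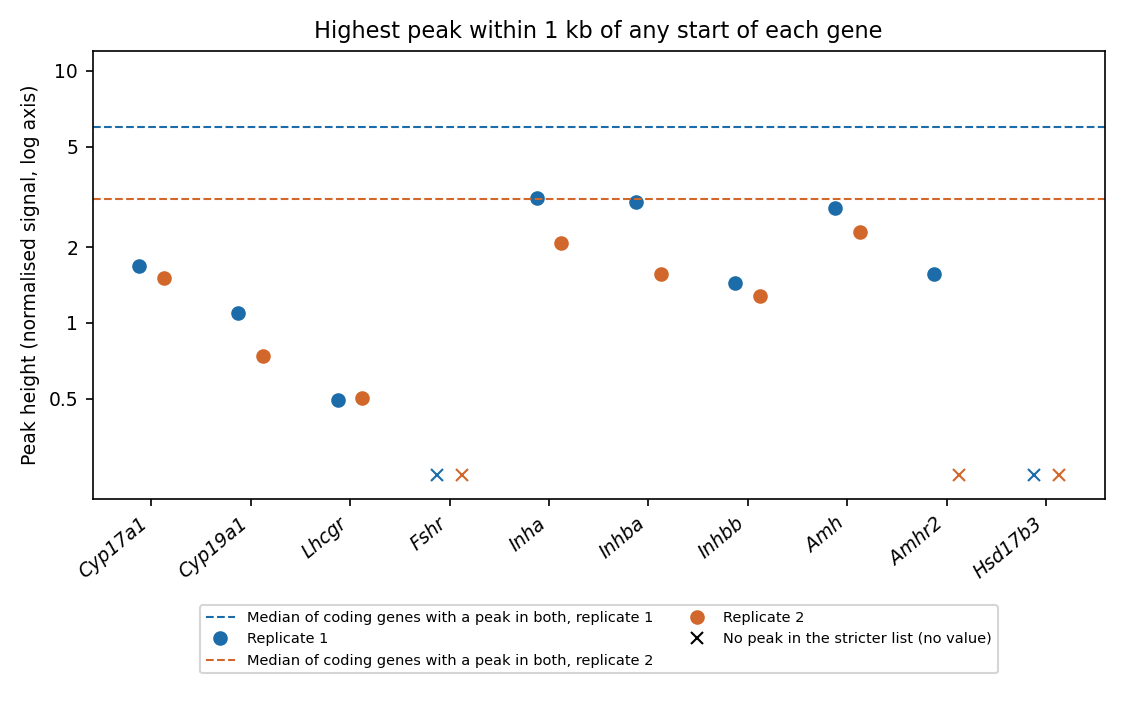
Height of the highest promoter peak of each gene (normalised signal, log axis) in replicate 1 (blue) and replicate 2 (orange), with shared peaks taken where a gene has one, crosses at an arbitrary low position for genes without a peak in that replicate's stricter list, and dashed lines at the medians of all coding genes with a shared promoter peak. All points lie under the median line of their own replicate (5.96 and 3.11).

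Cyp17a1, the enzyme that commits steroids to the androgen route, was accessible inside the gene in both replicates and at its 5′ starts in replicate 1 alone. The gene lies at chr19:46667165-46673172 on the minus strand. Its shared peak, at chr19:46670794-46670980 in an intron, was 1.68 in replicate 1 and 1.51 in replicate 2 and carried 2 and 3 footprints. It lay 2192 bp inside the gene from the most 5′ start and counted as a promoter peak only through an annotated retained-intron transcript that starts 311 bp away. The 5′ starts, at 46673172 and 46672974, were accessible in replicate 1, with a peak of 1.26 over the 5′ UTR, 4 footprints and a lowest false discovery rate (FDR) of 1.53e-05. Replicate 2 had 0 bases listed at an FDR under 0.05 within 1 kb of either of these starts. It had fewer peaks across the genome, so a missing listing does not show that the starts were closed. In the intron the replicates differed by 1.11-fold.

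The window of Cyp17a1 also held a distal site that was higher than any peak in the gene. It lay at chr19:46641781-46642000, in an intron of Wbp1l and 27513 bp beyond the nearest Cyp17a1 start, with heights of 4.03 and 1.78 and 4 and 2 footprints. A second site in Wbp1l, at chr19:46628441-46628680, reached 3.67 in replicate 1 and 1.18 on the looser list of replicate 2. The site at 46641781 lay 18380 bp from the nearest annotated start of any gene, and no value here ties it to Cyp17a1 or to Wbp1l. The shared peaks upstream of Cyp17a1 lay at starts of Borcs7 (4.61 and 2.96) and As3mt (3.56 and 2.2).

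Cyp19a1, the aromatase gene, showed no shared signal at any start of a coding transcript. The gene spans chr9:54165937-54268110 on the minus strand, with its most 5′ start at 54268110 and coding starts at 54193442 and 54193522. The most 5′ start had 0 listed bases within 1 kb in both replicates. The coding starts had 44 listed bases in replicate 1, with a lowest FDR of 0.037 and a looser-list peak of 0.234, and 0 in replicate 2. The shared promoter peak of the gene, at chr9:54181381-54181580, was 1.1 and 0.738, and it lay 86530 bp inside the gene, 494 bp from the start of a retained-intron transcript. It held 2 footprints in each replicate and lay in an exon of that noncoding transcript. The only shared distal peak of the window, past the 3′ end at chr9:54163252-54163407, was 0.448 and 0.378, and a shared peak 18202 bp upstream lay at a start of Gldn (0.876 and 0.88).

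Hsd17b3, which encodes the testicular enzyme that makes testosterone, had no promoter peak. The gene lies at chr13:64058266-64089230 on the minus strand, and its 3 starts near the 5′ end had 0 listed bases within 1 kb in both replicates. At an internal start, 64063133, replicate 1 had 76 listed bases with a lowest FDR of 0.0195 and a looser-list peak of 0.287, and replicate 2 had 0. Its window nonetheless held 2 shared distal peaks. The higher, 4271 bp upstream at chr13:64093501-64093680, was 2.49 and 1.88, with 1 and 4 footprints. The other, beyond the 3′ end at chr13:64036421-64036620, was 1.31 and 1. Inside the gene body, replicate 1 had peaks of 0.862 and 0.876 that replicate 2 lacked on the stricter list. The only other gene with a start at shared peaks of the window was Slc35d2, with peaks of 2.93 and 1.95 and of 1.54 and 0.744.

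The receptors for the gonadotropins differed from each other at their starts. Lhcgr, the receptor for luteinising hormone, lies at chr17:88716481-88791990 on the minus strand and had a shared peak across its 5′ end, at chr17:88791736-88792077. Its height was 0.495 in replicate 1 and 0.502 in replicate 2, with 3 footprints in each, and it was the lowest shared promoter peak among the 10 genes. The region covered the coding start and the most 5′ start, with 353 and 583 listed bases within 1 kb. The replicate 1 peak ended at the coding start, 88791976, and the replicate 2 peak covered both starts. Upstream, at chr17:88803541-88803870 and 11551 bp from the start, a distal peak reached 1.66 in replicate 1 and 0.397 in replicate 2, the largest ratio between replicates among the shared distal peaks of these genes. Replicate 1 had 2 footprints there and replicate 2 had 1, and no base lay in a footprint of both. The other shared peak of the window lay at a start of Gtf2a1l (0.769 and 0.849), beyond the 3′ end.

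Fshr, the receptor for follicle-stimulating hormone, had no detectable accessibility at its start. The gene spans chr17:88984952-89200675 on the minus strand and has 1 annotated start, with 0 listed bases within 1 kb in both replicates. Across its whole body the stricter lists held 1 peak, of 0.281 in replicate 1 at chr17:89177941-89178060, where replicate 2 had 0 listed bases. The window of 315.7 kb held 1 shared peak, at chr17:88954159-88954320 and beyond the 3′ end, with 0.822 and 0.496 and with 3 and 2 footprints. FDR stretches covered 0.419% and 0.12% of the Fshr window, against medians of 3.49% and 2.45% over all coding genes. No other coding gene has a start in the Fshr window, and it was not set beside windows of like gene content. An unlisted stretch is one not detected at this depth, and a small set of accessible cells could be missed.

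All 3 inhibin and activin subunit genes had a shared peak within 1 kb of their most 5′ start. Inha, which encodes the alpha subunit found only in inhibins, lies at chr1:75507077-75510366 on the plus strand. Across its start, at chr1:75506967-75507340, the shared peak was 1.48 and 0.954, with 2 footprints in replicate 1 and 0 in replicate 2. A higher shared peak, at chr1:75506061-75506600, was 3.13 and 2.08 with 9 and 4 footprints. That peak lay 477 bp upstream, in a UTR of the neighbouring gene Obsl1 and within 1 kb of an Obsl1 start, so that its height cannot be assigned to either gene. The peak at the start of Inha also lay within reach (1 kb) of an Obsl1 start. Other shared peaks of the window lay at starts of Chpf and Tmem198 (10.7 and 4.48), Stk11ip (6.36 and 3.57) and Slc4a3 (2.79 and 2.24). The Inha window was the most accessible of the 10, with FDR stretches over 10.8% and 9.6% of it, and it held 3 shared distal peaks: 3.19 and 1.95 at chr1:75467701-75467900 in Asic4, 3.77 and 2.13 at chr1:75477301-75477680 in Chpf, and 6.95 and 3.13 at chr1:75559461-75559780 in a UTR of Slc4a3.

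Inhba, the beta A subunit of inhibin A and activin A, lies at chr13:16011851-16031621 on the plus strand. It had a shared peak of 3.02 and 1.56 at chr13:16012221-16012500, in the UTR 370 bp past the start at 16011851, with 4 and 5 footprints. A second shared peak, 110 bp past the start, was 0.829 and 0.849. Its second annotated start, at 16014475, had 0 listed bases in both replicates. Inhba was the only one of the 10 genes with no shared distal peak in its window, and peaks of 0.735 upstream and 0.755 in an intron were on the stricter list in replicate 1 alone. The intron site was on the looser list of replicate 2, with 0.707 and a lowest FDR of 8.39e-04, and the upstream site had a lowest FDR of 0.0443 there.

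Inhbb, the beta B subunit, lies at chr1:119415465-119422248 on the minus strand and was accessible at its start and further into the gene. At the start, chr1:119421421-119422396 held a shared peak of 1.35 and 1.28 with 7 and 10 footprints, and 888 bp into the gene a second one reached 1.44 and 1.2. Within 1 kb of its single start 1456 bases were listed in each replicate, the largest number among the 10 genes. It also had the most distal sites: 6 shared peaks, all between genes. In both replicates the lowest was at chr1:119463501-119463660 (0.963 and 0.694), while the highest of replicate 1 was at chr1:119391381-119391580 (2.29 and 0.979) and that of replicate 2 at chr1:119458221-119458520 (1.78 and 1.13). No other gene had a start at a shared peak of this window. The nearest of the distal sites, 1393 bp upstream at chr1:119423641-119423840, was 1.68 and 0.831.

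Amh, which encodes anti-Müllerian hormone, was accessible inside its coding sequence and not at its start. The gene, at chr10:80805243-80807648 on the plus strand, had 0 listed bases within 500 bp of its start in both replicates. Its promoter peak, 747 bp past the start at chr10:80805990-80806180 in a coding exon, was 2.85 and 2.3 with 3 and 2 footprints. A further shared peak over coding sequence, at chr10:80807081-80807613 and 1838 bp past the start, was 2.58 and 1.93, with 3 footprints in each replicate. Of the 10 genes it had the highest replicate 2 promoter peak, and its neighbourhood is dense: shared peaks lay at starts of Dot1l (13.7 and 5.91), of Plekhj1 and Sf3a2 (8.04 and 5.17), of Oaz1 (9.57 and 4.85) and of Lsm7 and Sppl2b (13.1 and 7.45). The other shared distal peaks, 4.1 and 2.34 and 3.26 and 1.74, lay in introns of Dot1l.

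Amhr2, the receptor through which anti-Müllerian hormone acts, lies at chr15:102445367-102454633 on the plus strand and had 0 listed bases within 1 kb of its starts at the 5′ end (102445367, 102445436 and 102445448) in both replicates. An internal coding start at 102452159 had a peak 919 bp away, at chr15:102450915-102451240 in an intron, with 1.56 and 6 footprints in replicate 1. In replicate 2 this site was on the looser list alone, with 0.614 and a lowest FDR of 0.0283, so the call turned on the peak list. A shared distal peak of 3.8 and 2.73 lay 2567 bp upstream at chr15:102442581-102442800, with 4 footprints in each replicate. The other shared distal peak, at chr15:102399501-102399960, was higher (6.74 and 2.92) but lay nearer to Sp1 (peaks of 9.62 and 4.61 at its start) than to Amhr2. Starts of Prr13 (5.04 and 1.51) and Pcbp2 (10.7 and 4.05) lay downstream.

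Absence of signal at the main start was thus shared by part of the genes. Cyp19a1, Fshr, Amhr2 and Hsd17b3, 4 of the 10, had no listed base within 1 kb of the most 5′ start in either replicate, beside 31.0% of all coding genes. Counting any annotated start, 8 of 10 had bases listed at an FDR of at most 0.05 in both replicates (68.5% of coding genes), and 7 at an FDR of at most 0.001 (64.4%). The genes not reaching the stricter level in both replicates were Fshr, Amhr2 and Hsd17b3. These shares are close to those of all coding genes and are no result about the 10 genes.

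Promoters rich in CpG dinucleotides were open more often across the genome, and most of the 10 genes have starts poor in CpG. Genes were ranked into deciles by the ratio of observed to expected CpG in the 500 bp on either side of the most 5′ start. Amh and Cyp17a1 fell in decile 2, Inha, Cyp19a1, Hsd17b3 and Amhr2 in decile 3, and Lhcgr and Fshr in decile 4. The share of coding genes with a shared promoter peak was 14.9% in decile 2, 25.4% in decile 3 and 42.8% in decile 4. Inhba was in decile 5 (71%) and Inhbb in decile 8 (96.4%). The decile shares of the 10 genes, which count a peak within 1 kb of any start, add up to 3.84 genes, set beside the 7 observed. No such sum was made for the 5 found with starts of coding transcripts. The deciles describe the most 5′ start, while the shared peaks of Cyp17a1 and Cyp19a1 lay 2192 bp and 86530 bp from it. The genes without a shared peak, Fshr, Amhr2 and Hsd17b3, came from the same deciles as Lhcgr, Inha and Cyp19a1, which had one.

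**Figure D2:**
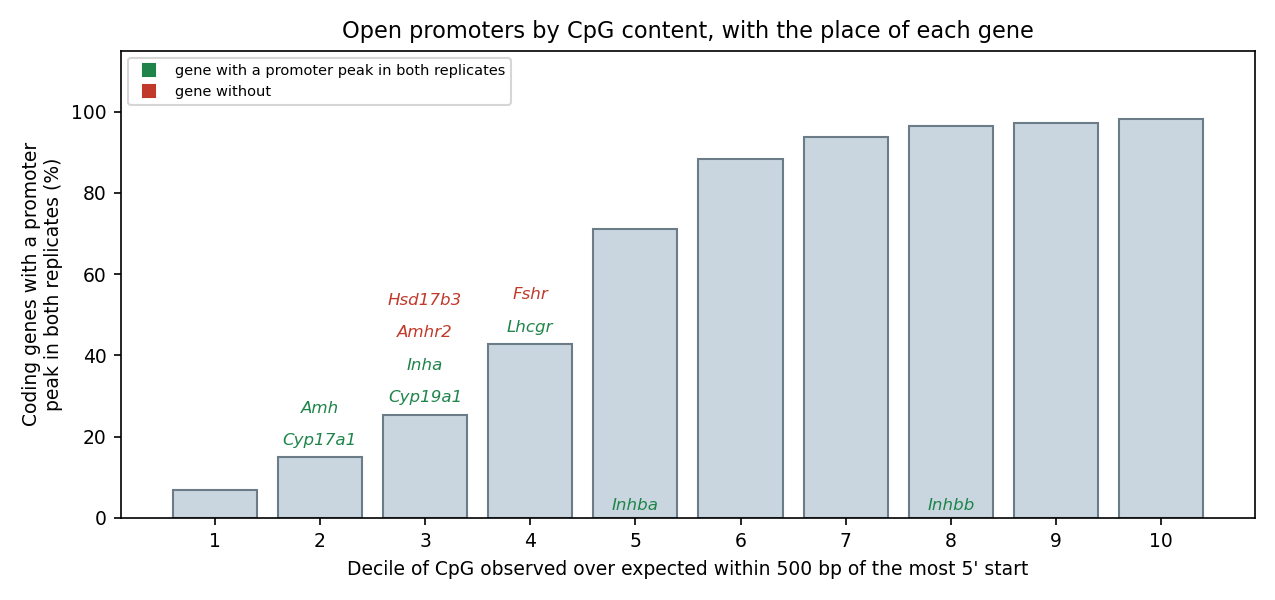
Percentage of coding genes with a promoter peak in both replicates (bars) in each decile of observed to expected CpG around the most 5′ start, with the 10 genes written at their decile in green (shared peak) or red (none), their height in the plot having no meaning. Of the 10 genes, 8 lie in deciles 2 to 4, where the bars reach 14.9% to 42.8%.

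Around the 10 genes the windows held 91 peak regions, of which 55 (60.4%) were shared, beside 48.3% of all regions in the genome. The shared ones were 10 at the genes' own starts, 25 at starts of other genes and 20 distal. Across the genome, 21677 shared regions lay within 1 kb of a start and 26622 were distal. The windows thus held a larger part of regions at starts, and the shares above compare unlike mixes of regions. The remaining 36 of the 91 were found in replicate 1 alone, beside 47.2% of all regions in the genome, and 0 in replicate 2 alone. Of those 36, 22 held bases with a listed FDR under 0.05 in replicate 2, and 17 had a peak on its looser list. Shared distal peaks were found in the windows of 9 of the 10 genes, beside 73.0% of all coding genes, with 1 each at Cyp17a1, Cyp19a1, Lhcgr and Fshr, 2 each at Amhr2 and Hsd17b3, 3 each at Inha and Amh, 6 at Inhbb and 0 at Inhba. Per 100 kb of window the median was 1.24, against a median of 1.11 and a mean of 1.64 over coding genes.

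By height, the distal peaks near these genes stood differently from their promoter peaks, as a description of few sites with no test. The 20 distal peaks had median heights of 2.39 and 1.44, against 1.5 and 0.874 over 26622 shared distal regions. Those inside other genes (Wbp1l, Asic4, Chpf, Slc4a3 and Dot1l) all lay above 2.39 and 1.44, at 3.19 to 6.95 in replicate 1 and 1.74 to 3.13 in replicate 2. The others, between genes or in Amh, ranged from 0.448 to 6.74 and from 0.378 to 2.92. No median was computed without the sites inside other genes, and no distal site was tied to any of the 10 genes. All 20 held a footprint in both replicates, as did 95% of all shared distal regions. The distal count rests on the width of the window and on replicate 2: it was 49 on replicate 1 alone and 39 on the looser lists.

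**Figure D3:**
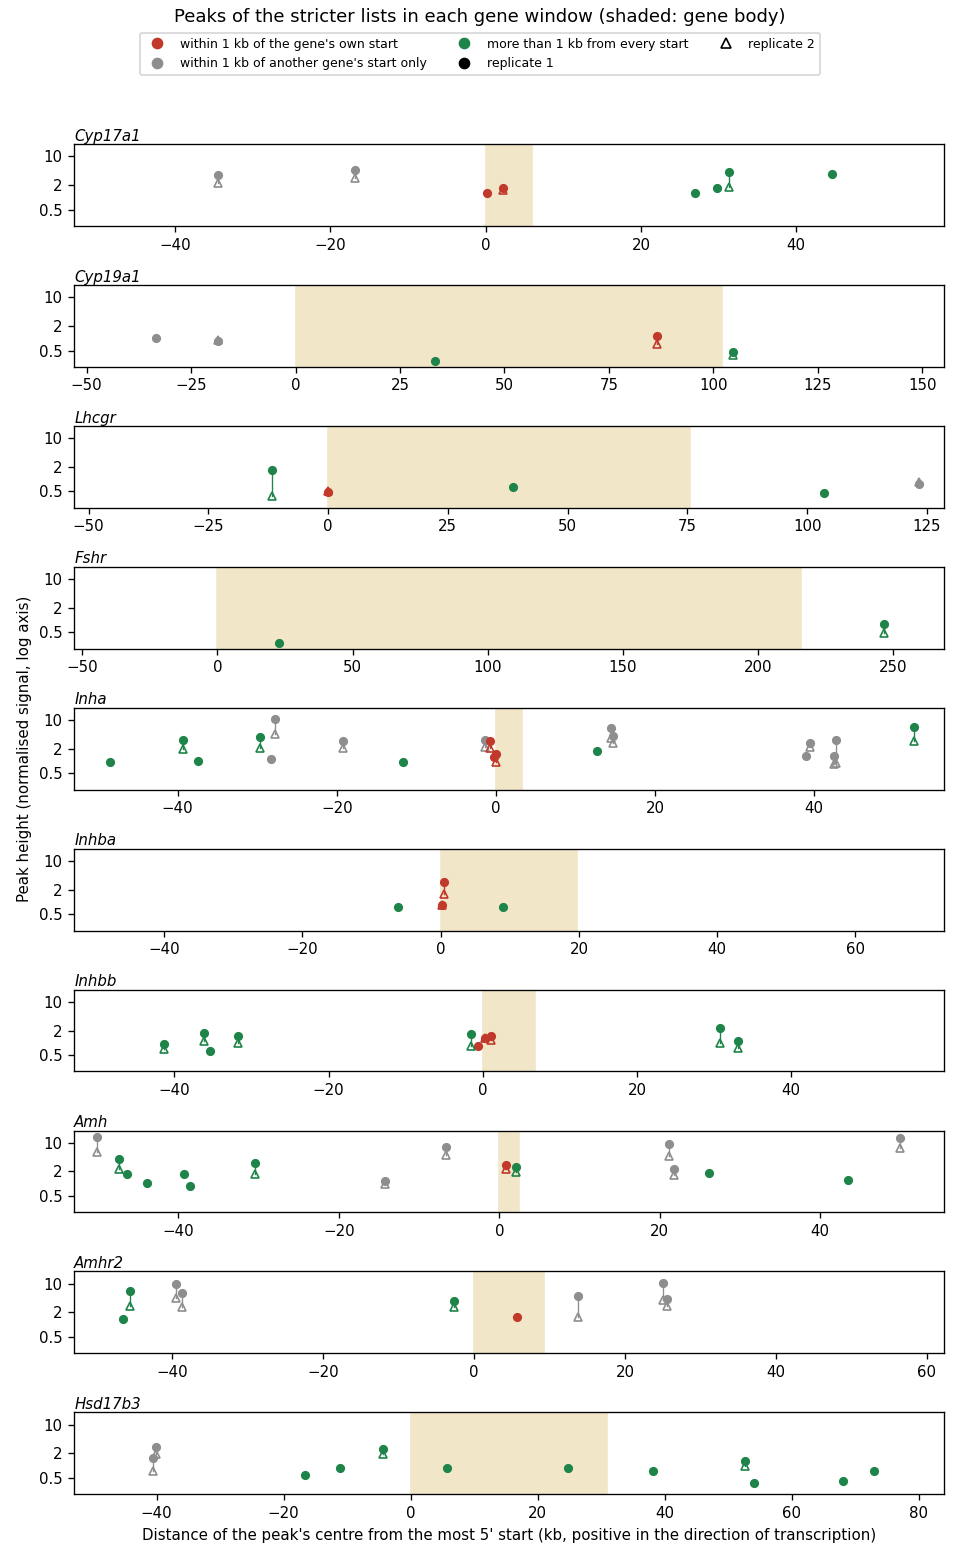
Peaks of the stricter lists in the window of each gene by distance of the peak's centre from the most 5′ start (kb, positive in the direction of transcription) and height (normalised signal, log axis), for replicate 1 (filled circles) and replicate 2 (open triangles), coloured by position and with lines joining shared peaks and gene bodies shaded. Grey peaks at other genes' starts are the highest in the Inha, Amh and Amhr2 windows, the Fshr body holds 1 low peak of replicate 1, and Inhba has shared peaks only at its own start.

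Most promoter peaks of these genes were more alike in both replicates than shared regions of the genome, where the median log2 ratio between replicates 1 and 2 was 0.73. After subtraction of that median, the ratio was -0.75 at Lhcgr, -0.58 at Cyp17a1, -0.57 at Inhbb, -0.42 at Amh, -0.15 at Cyp19a1, -0.15 at Inha and 0.23 at Inhba. The central range of all shared regions, from the 10th to the 90th percentile, was -0.63 to 0.59, and of these values that of Lhcgr alone lay outside it. The Inhbb value joins the highest peak of each replicate, which lay in different regions. Taken by region, Inhbb had -0.66 across the start, outside the central range, and -0.48 further into the gene. The lower Inhba peak, 110 bp past the start, had -0.77 and also lay outside. Low peaks were more alike in both replicates across the genome: in 1867 shared regions with a geometric mean height of both replicates under 0.5, where the Lhcgr start falls, the median was -0.53 and the 10th to 90th percentile range -1.06 to 0.03. Lhcgr lay inside that range, and Cyp17a1 and Amh lay inside the ranges of their own height bands (-0.62 to 0.60 from 1 to 2, and -0.45 to 0.58 from 2 to 4). The Inhbb region across the start (geometric mean height 1.32) lay outside the range from 1 to 2, and the one further in (1.31) inside it. The lower Inhba peak (0.839) lay inside the range from 0.5 to 1, which was -0.79 to 0.47. The distal site upstream of Lhcgr lay outside the central range on the other side, with a centred ratio of 1.33, or 4.18-fold higher in replicate 1 before centring. Its geometric mean height was 0.811, and shared regions from 0.5 to 1 on that measure had a 90th percentile of 0.47.

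**Figure D4:**
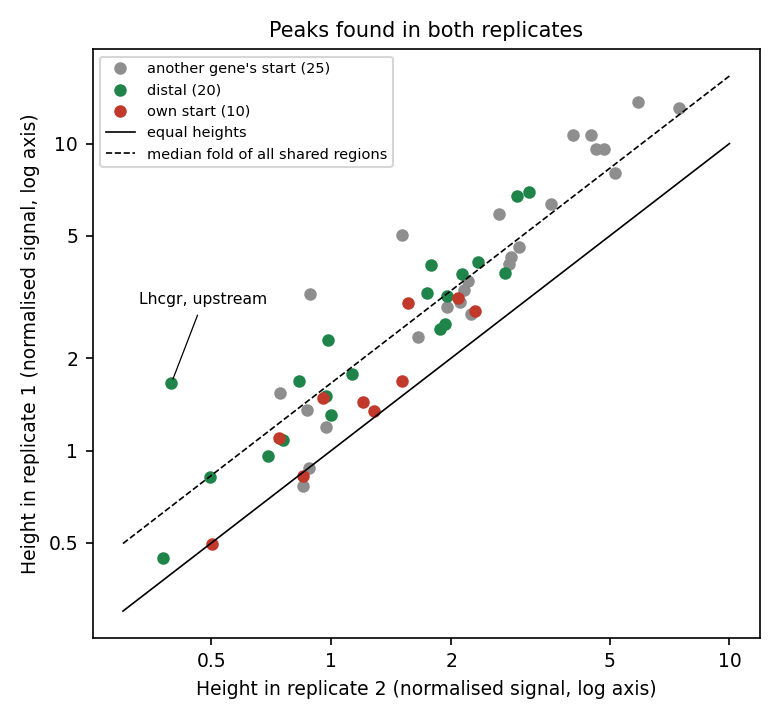
Heights of the 55 shared peaks in the gene windows in replicate 2 (horizontal, log axis) and replicate 1 (vertical, log axis), coloured as own start (10), distal (20) or another gene's start (25), with a solid line of equal heights and a dashed line at the median ratio of all shared regions (1.66-fold). Own-start peaks lie between or near the lines, and the upstream peak of Lhcgr (1.66 and 0.397) lies farthest above the dashed line.

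Fixed motif letters were searched on both strands of the 160-base windows, and positions are counted from 1 at the 5′ end of the sequences printed above. AAGGTCA, the letters bound by SF-1 and related nuclear receptors, was found in 3 of the 20 distal windows, beside 4.98% of all shared distal regions. At the Cyp17a1 site in Wbp1l it began at position 69 on the minus strand, next to GGGCGG at position 56. At the Fshr site it began at position 80 on the minus strand, and in both of these windows the match overlapped a footprint of both replicates. At the farther Inhbb site it began at position 87 and overlapped no footprint, while the palindrome of NFI factors began there at position 100 and did overlap footprints of both replicates (1.89% of distal regions). AAGGCCA, a variant of the SF-1 letters, was found in 1 of 10 own-start windows, across the start of Inha, outside footprints (3.34% of shared promoter regions). AAGGTCA was in 0 of the 10 own-start windows (1.71% of promoter regions) and AAGGCCA in 0 of the 20 distal windows (6.66% of distal regions).

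The core letters of the CTCF motif, searched in 2 forms, stood in 5 of the 20 distal windows, close to the share of all shared distal regions (24.8%). Both distal windows of Hsd17b3 held them, from position 78 on the minus strand in the upstream one, as did 2 at Inha and 1 at Amh. Among own-start windows, only the internal Cyp19a1 site did, from position 65 (9.41% of shared promoter regions). All of these matches overlapped footprints of both replicates. GGGCGG, the letters of SP and KLF factors, occurred in 4 of 10 own-start windows, beside 48.5% of shared promoter regions, and in 3 of 20 distal ones, beside 9.81%. TGACGTCA, the full cAMP response element, was found in none of the own-start and distal windows (2.03% of promoter and 0.379% of distal regions), and neither was TGANTCA, the letters of AP-1, or TGATAA, which factors such as Gata4 bind. Of the remaining letters, AGATAA was found in 1 distal window (the nearer downstream site of Inhbb, 4.59% of distal regions), ACAAAG in 1 own-start window (6.41% of promoter regions), GGAATG in 1 own-start (5.78%) and 1 distal window (9.54%), and CCAAT in 1 own-start window, that of Amh (22.9%).

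In the RefSeq promoters, Lhcgr held GGGCGG 4 times, at positions 175, 209, 226 and 239, beside 32.7% of all RefSeq promoters with at least 1. Amhr2 held AAGGTCA at position 20 (4.08% of promoters), TGATAA at position 52 on the minus strand (7.94%) and GGGCGG at position 234. Fshr held none of the letters searched. A match is a description of the sequence and no evidence of binding, and a missing match says only that these letters are not in the window.

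Other genes of the same pathways were set beside the 10, with the 63.5% of coding genes as the background. Among adrenal steroid enzymes, 8 of 11 had a shared promoter peak, with median heights of 5.3 and 2.8. Por, which passes electrons to the P450 enzymes of the endoplasmic reticulum, had 14 and 5.89 and Fdxr, the reductase of the mitochondrial chain, 11 and 4.3, while Hsd3b1 had none in either replicate and Cyp21a1 had 2.21 in replicate 1 alone. Among other sex steroid enzymes and receptors it was 9 of 14, with 12.3 and 4.56 at Srd5a1, a reductase of testosterone that shares its peak with a start of Nsun2, and 11.4 and 4.47 at Hsd17b7, and none at Hsd17b1 and Hsd17b2. Cyp17a1 and Cyp19a1, with 1.68 and 1.51 and with 1.1 and 0.738, lay under the medians of both lists.

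Of 8 genes of gonadotropin ligands and signalling, 4 had a shared promoter peak. The protein kinase A subunit genes Prkaca (10.8 and 4.74) and Prkar1a (6.79 and 4.57) had one, and Cga and Lhb, which encode the subunits of luteinising hormone, had none. Of 19 genes of inhibin, activin and anti-Müllerian hormone signalling, 17 had one, among them Smad4 (13.4 and 5.86) and Smad1 (9.81 and 4.46). The list includes the other activin subunit genes Inhbc and Inhbe, which had none. Of 14 regulators 11 had one, among them Cited2 (13 and 8.56) and Creb1 (12.9 and 6.96). Nr5a1 had 3.24 and 2.09 and Gata4, a factor shared with the gonads, 1.7 and 0.979, while Wt1 and Lhx9 had promoter peaks of 0.837 and 0.818 in replicate 2 alone. The CpG decile shares add up to 4.28 genes for the 8 adrenal steroid enzymes with a peak, 9.14 for the 9 other sex steroid genes, 4.34 for the 4 of gonadotropin signalling, 17 for the 17 of inhibin, activin and anti-Müllerian hormone signalling and 10.5 for the 11 regulators. For the markers they add up to 2.8 beside the 6 of the cortex, 4.4 beside the 4 of chromaffin cells and 3.65 beside the 4 of granulosa cells. They add up to 5.01 beside the 2 of germ cells, 4.47 beside the 1 of the Sertoli and Leydig list (with Tex11) and 2.15 beside the 1 of kidney.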

How the data were processed

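Open chromatin was measured by DNase-seq in 2 samples, replicates 1 and 2 of 1 group of adrenal gland. Per the deposited file listing, the authors made each file from 1 sample on mm10. Which aligner and which callers of peaks and footprints they used was not given in the sources used here. Peak heights are a signal that the authors normalised, with no stated scale. In the looser list of each sample the heights were multiples of 1 step (0.00668 and 0.0062, 100.0% within 5% of a step). The step was read as 1 tag, an inference from the values, and the stricter lists were not checked separately. Read depth is otherwise unknown. The deposited FDR values are adjusted p-values listed under 0.05, and footprints carry the deposited p-value of 0.01 as a call level. Each sample had 2 peak lists: the stricter held peaks at an FDR of 0.001 and was used in the main counts. CAST/EiJ reads were placed on the C57BL/6J sequence.

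Starts and UTRs came from GENCODE M21. Regions were the union of both replicates' peaks, and the height of a region was its highest peak per replicate. Motif letters were searched in 160-base windows. Shares over all 21938 coding genes were computed by the same code, which was tested on simulated data. Python 3.11.15, numpy 2.4.6, pandas 2.3.3, pysam 0.24.0, samtools 1.23.1 and matplotlib 3.10.9 were used. Alternatives were the looser list, other promoter and window widths, 50% overlap, the 50% highest peaks and each replicate alone; starts of coding transcripts and a second CTCF form were added after seeing the data.

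The genes and lists were chosen with earlier results of these data known. All 10 genes are named, with genes whose starts lie at shared peaks of their windows, up to 4 per gene by the rule, with 5 at Inha and 6 at Amh. Of each pathway list the pair with the highest mean rank of promoter peaks and the pair that comes before the others without a shared one are named. Nr5a1, Gata4, the markers of granulosa and germ cells and the hosts of distal peaks were named after their values were seen, as were the nearer Amhr2 and the farther Inhbb window. The highest distal windows of Cyp19a1, Amh and Amhr2 are not printed. Sts was not found under that symbol.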

Additional observations from a re-analysis of the deposited data

How the results depend on the processing

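The count of genes with a shared promoter peak, 7, was between 5 and 8 under every alternative run, and so was the count with footprints. It was 7 on replicate 2 and 8 on replicate 1. In the 50% highest peaks 5 remained, without Cyp19a1 and Lhcgr. No share of all coding genes was computed at that setting, so this count has no background and is a description alone. The distal count of 20 moved more: it was 39 on the looser lists, 11 in the 50% highest peaks, 8 within 25 kb, 48 within 100 kb, and 20 to 49 on a single replicate, replicate 1 giving the higher value. With 50% overlap it was 19 and beyond 2 kb of every start 17. The median promoter height over the genes, 1.6 as the mean of both replicates, was 1.48 on the looser lists, and as a rank it stood at percentile 19.6. Starts with listed signal in replicate 1 and less or none in replicate 2 included Cyp17a1's 5′ starts, Cyp19a1's coding starts and the internal starts of Amhr2, Hsd17b3 and Lhcgr. No paired analysis was possible because there was 1 group.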
